A study of Mus musculus with 16 samples.

Results

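The genes described here encode the subunits that distinguish the immunoproteasome from the constitutive proteasome. They were picked by name by a rule that used no measured value, but with earlier results of these data known. The inducible set holds *Psmb8*, *Psmb9* and *Psmb10* (the catalytic subunits of the immunoproteasome) together with *Psme1* and *Psme2*, which encode the alpha and beta subunits of the PA28 activator. The constitutive set holds *Psmb5*, *Psmb6* and *Psmb7*, the catalytic subunits that those of the immunoproteasome replace, and *Psme3*, which encodes the nuclear PA28 gamma activator. All 9 genes, 5 inducible and 4 constitutive, were among the 26382 genes of the table, and all 9 passed the filter on low values.

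Bulk RNA sequencing was performed on hamstring muscle of female C57BL/6 mice aged 8 to 10 weeks, collected 14 days after injection, in a model of myositis induced by recombinant histidyl-tRNA synthetase (HRS), the protein recognized by anti–Jo-1 antibodies. In mice m862 to m866, the left hamstring was labelled as injected with HRS at 3 to 5 mg/mL and the right hamstring as injected with PBS, which gave 5 HRS legs and 5 contralateral PBS legs. The PBS-only mice, m867 and m868, had PBS on either side, and the 4 libraries of this group are the legs of these 2 animals. A single library came from each of m860 and m861, whose leg is not given. Their titles name an MBP fusion of a protein written as ma, at 2 to 3 mg/mL, while their treatment label says HRS. The titles of the HRS legs also write ma, which was read as HRS. The libraries of m860 and m861 were therefore kept apart as HRS-MBP. The general protocol in the labels describes HRS given to both hamstrings, and the sample titles, which assign a treatment to every leg, were followed here. A contralateral PBS leg therefore comes from an animal that carried HRS in its other leg, and only the PBS-only mice were free of it.

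The proteasome degrades ubiquitin-tagged proteins inside a barrel-shaped 20S core, whose proteolytic sites sit on 3 kinds of beta subunit. Interferon-gamma induces alternative catalytic subunits that are built into newly assembled cores in place of the standard ones, and the resulting immunoproteasome favours peptides with termini that fit MHC class I molecules. Leukocytes contain immunoproteasome subunits without any stimulus, whereas resting skeletal muscle relies mainly on the constitutive form. PA28 alpha and beta form a ring on the core that also responds to interferon-gamma.

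In GRCm38 coordinates, *Psmb8* lies on chromosome 17 from 34197721 to 34201454 on the plus strand, and *Psmb9* lies beside it from 34181987 to 34187764 on the minus strand, within the MHC. *Psmb10* is on chromosome 8 from 105935735 to 105938444. *Psme1* (55578123 to 55581529) and *Psme2* (55587441 to 55591113) are near neighbours on chromosome 14, and *Psmb5* lies on the same chromosome from 54614119 to 54618022. *Psmb6* (70525367 to 70527858) and *Psme3* (101316213 to 101323537) are on chromosome 11, and *Psmb7* is on chromosome 2 from 38588036 to 38644087. The members thus sit at separate loci, apart from the *Psmb8* and *Psmb9* pair and the *Psme1* and *Psme2* pair. The annotated span of *Psmb9* overlaps the start of *Tap1* on the opposite strand, and those of *Psmb8*, *Psmb10*, *Psme1* and *Psmb7* overlap other genes on the opposite strand, so reads from these overlaps cannot be assigned if strand was not used in counting.

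Because the inducible and constitutive genes separated in the data, the promoters were read for the letters of 3 known elements. RefSeq promoter windows of 300 bases (build GRCm38.p6, from 250 bases before to 50 after the start) existed for 8 of the 9 genes, with none for *Psmb7*. The cores searched on both strands were GAAANNGAAA for the interferon-stimulated response element, TTCNNNGAA for the gamma-activated site and TGACNNNGC for the antioxidant response element. Each match is shown with its flanks, read 5′ to 3′ along the strand of the gene, and the capitals mark the matched letters.

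*Psmb8*, gamma-activated site core, chr17:34198088-34198116, plus strand: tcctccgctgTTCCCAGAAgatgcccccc

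*Psme1*, interferon-stimulated response element core in reverse orientation, chr14:55578493-55578522, plus strand: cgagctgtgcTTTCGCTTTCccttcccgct

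*Psmb5*, antioxidant response element core, chr14:54618024-54618052, minus strand: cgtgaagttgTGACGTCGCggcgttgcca

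*Psmb6*, antioxidant response element core, chr11:70525338-70525366, plus strand: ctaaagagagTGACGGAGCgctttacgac

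Counted from the RefSeq start on which each window is built, the *Psmb8* match lay 97 bases before the start, the *Psmb5* match 47 bases and the *Psmb6* match 9 bases before it, and the *Psme1* match 9 bases after it. For these 4 genes the RefSeq start differs from the outer end of the gene span given above. For *Psmb8* the RefSeq start is 34198195 and for *Psme1* 55578494, so that both matches fall inside the annotated spans of their genes. Among the 5 inducible genes, 1 held the interferon-stimulated core and 1 the gamma-activated core, and 0 held the antioxidant core. Of the 3 constitutive genes with a window, 2 held the antioxidant core and 0 held either interferon core. Over all 32851 windows of this length, 3.44% held the interferon-stimulated core, 8.3% the gamma-activated core and 12.4% the antioxidant core. These are matches of letters and say nothing about binding. The windows of *Psmb9* and *Tap1* face each other and overlap, with starts at 34187330 on the minus strand and 34187556 on the plus strand.

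Values are the authors' normalized counts, whose totals lay between 726797 and 1252358 per library. The steps between low values imply about 8600000 to 73900000 reads per library, and both legs of PBS-only mouse m868 were the shallowest. The fewest reads behind any value of a member were about 72, for *Psme2* in the right leg of m868. Muscle fibre genes such as *Acta1* and *Ckm*, 8 in all, were present in each library and summed to 38699 to 178314, as the tissue label requires. The sum of *Ptprc*, *Laptm5* and *Coro1a*, which mark leukocytes of any kind, was 192 to 849 in HRS legs, 19.3 to 45.4 in contralateral PBS legs, 15.9 to 37.5 in PBS-only mice and 721 to 848 in HRS-MBP. In such tissue RNA, more cells of a type and more RNA per cell cannot be told apart.

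The first question was whether the leg that received HRS differed from the opposite leg of the same animals. The 3 inducible catalytic subunits and both PA28 subunits were higher in HRS legs, whereas none of the 4 constitutive genes moved past the threshold. A gene was called at a limma adjusted p below 0.05 together with an absolute log2 fold change above 1. By this rule 5 of 5 inducible genes were higher and 0 of 4 constitutive genes changed, against 23.2% of the 16414 tested genes called in either direction, 16.9% of them higher and 6.27% lower. The median log2 fold change was 2.31 over the inducible genes, -0.21 over the constitutive genes and 0.08 over all genes tested.

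*Psmb8* encodes beta5i, the chymotrypsin-like subunit that takes the place of *Psmb5*. Its normalized counts in the HRS legs of m862 to m866 were 110, 89.3, 251, 70.1 and 84.1. Their contralateral PBS legs held 12.7, 11.2, 21.2, 11.8 and 21.7. The lowest HRS leg was thus above the highest contralateral leg, and the leg of m864 stood apart at the top. In the limma fit *Psmb8* was 6.96-fold higher, a log2 fold change of 2.80 (SE 0.380, adjusted p = 4.17e-05).

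*Psmb9* encodes beta1i, the counterpart of *Psmb6*. Its normalized counts were 54.7, 41.2, 121, 30.1 and 46.1 in the HRS legs of m862 to m866. The opposite legs gave 6.79, 4.43, 9.21, 3.82 and 9.46, again without overlap. The log2 fold change was 2.94 (SE 0.370, adjusted p = 2.24e-05), which is 7.66-fold and the largest of the 9 genes in this comparison.

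*Psmb10* encodes beta2i, the counterpart of *Psmb7*. It was measured at 85.1, 60.4, 142, 43.1 and 61.4 in HRS legs. The contralateral legs held 13.5, 10.4, 16.8, 12.1 and 19.95 in the same order of mice. The groups did not overlap, and the log2 fold change was 2.31 (SE 0.268, adjusted p = 1.11e-05).

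*Psme1*, the PA28 alpha gene, started from a higher level and rose less on this scale. HRS legs held 89.0, 68.0, 146, 54.3 and 73.2 normalized counts. Contralateral legs were close together at 32.0, 29.6, 30.3, 34.3 and 34.6. The log2 fold change of *Psme1* was 1.32 (SE 0.204, adjusted p = 0.000125), and its 95% confidence interval of 0.89 to 1.76 reached below the threshold of 1.

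*Psme2*, the PA28 beta gene, was listed at 27.9, 21.8, 46.2, 16.03 and 21.7 in HRS legs. In contralateral legs it was at 8.01, 6.86, 8.30, 5.92 and 10.2. The groups did not overlap, and *Psme2* rose by a log2 fold change of 1.63 (SE 0.234, adjusted p = 6.68e-05).

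The level of *Psme2* is uncertain, because the genome holds a near-identical copy, *Psme2b*, on chromosome 11 from 48945354 to 48946190. A local alignment of the 2 transcripts covered 794 bases, of which 789 were identical (99.4%), and how reads that fit both were counted is not stated. *Psme2b* held more than *Psme2* itself, with 52.2 to 154 normalized counts in HRS legs and 18.0 to 26.2 in contralateral legs. Its log2 fold change was 1.94 (adjusted p = 1.07e-05). *Psme2* made up 23.1% to 23.9% of the sum of both rows in HRS legs and 24.7% to 29.7% in contralateral legs. The sum was 114 ± 51.4 (SD, n = 5) in HRS legs and 28.9 ± 4.75 (SD, n = 5) in contralateral legs, without overlap (68.2 to 199.99 against 23.9 to 36.4). The row of *Psme2* may therefore leave out part of the PA28 beta transcript.

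**Figure D1:**
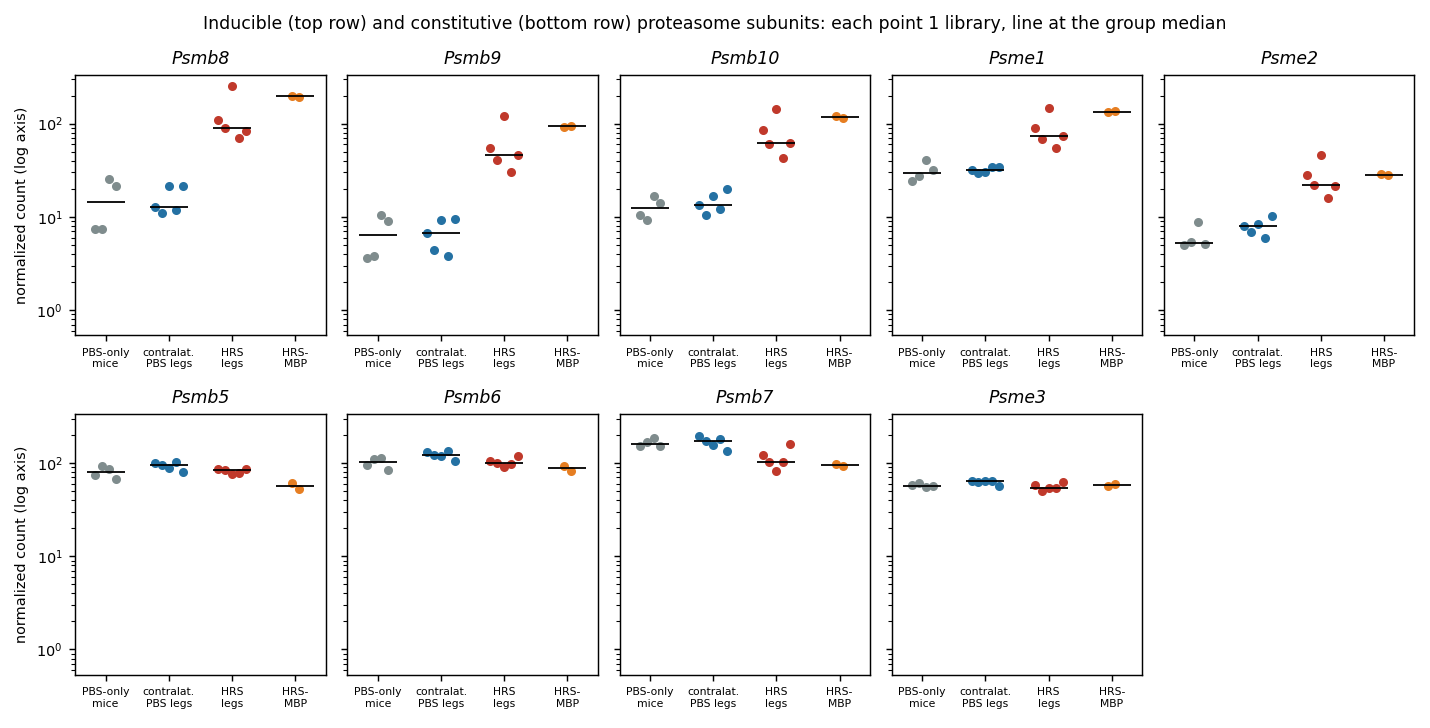
Normalized counts (log axis) of the 9 genes in each library, grouped as PBS-only mice (4 libraries), contralateral PBS legs (5), HRS legs (5) and HRS-MBP (2), with a line at each group median. For the inducible genes in the top row the HRS legs lie above both PBS groups, as for *Psmb8* at 70.1 to 251 against 11.2 to 21.7 in contralateral legs, whereas the HRS and PBS legs overlap for each constitutive gene in the bottom row.

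*Psmb5* encodes beta5, the chymotrypsin-like subunit of the standard core. Its normalized counts were 85.8, 84.6, 75.3, 78.3 and 86.2 in the HRS legs of m862 to m866. The contralateral legs held 99.3, 94.995, 89.0, 102 and 79.2. The groups overlapped only through m866, whose PBS leg was the lowest of its group and whose HRS leg the highest. The log2 fold change was -0.17 (95% confidence interval -0.39 to 0.04, adjusted p = 0.148, limma).

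*Psmb6* encodes beta1, the caspase-like subunit. It was measured at 106, 99.1, 91.0, 97.4 and 120 in HRS legs. Contralateral legs held 131, 122, 117, 134 and 106, and again m866 alone ran against the other mice. The log2 fold change was -0.25 (95% confidence interval -0.48 to -0.02), with a limma adjusted p of 0.0576.

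*Psmb7* encodes beta2, the trypsin-like subunit. Its HRS legs held 121, 103, 82.8, 103 and 159 normalized counts. The contralateral legs held 196, 170, 156, 182 and 135. *Psmb7* was the one constitutive gene with an adjusted p below 0.05 (0.00433, limma), at a log2 fold change of -0.58 (SE 0.151), which is short of the fold threshold. For comparison, 25.9% of all tested genes had an adjusted p below 0.05 in the lower direction.

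*Psme3* encodes PA28 gamma. HRS legs held 58.7, 50.4, 53.4, 53.7 and 62.1, and contralateral legs 63.7, 62.4, 64.0, 64.2 and 56.3. The log2 fold change was -0.16 (95% confidence interval -0.32 to 0.01, adjusted p = 0.0857, limma).

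The direction of *Psmb5*, *Psmb6* and *Psme3* depended on how the libraries were scaled, whereas *Psmb7* stayed below 0 under each scaling tried. With all libraries brought to the same total, where the all-gene median log2 fold change was 0.46 in place of 0.08, *Psmb5* was at 0.24, *Psmb6* at 0.17 and *Psme3* at 0.25 (adjusted p = 0.0142 for *Psme3*), and *Psmb7* at -0.16 no longer passed (adjusted p = 0.121). Limma-voom gave the same signs. With the trimmed mean of M values and with quantile normalization all 4 stayed below 0, at medians of -0.26 and -0.13. At a limma adjusted p below 0.05, 3 of 4 were lower with the trimmed mean and 1 of 4 with quantile normalization. All-gene medians were 0.03 and -0.16 under these scalings. The 5 inducible genes were called under each of the 22 alternatives tried for this comparison.

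Within mice, the HRS leg held more of each inducible gene than the PBS leg in 5 of 5 animals. The fold between legs was highest in m864, at 11.8 for *Psmb8*, 13.1 for *Psmb9*, 8.47 for *Psmb10*, 4.82 for *Psme1* and 5.57 for *Psme2*. The smallest folds were found in m866 for *Psmb8* (3.88), *Psmb9* (4.87), *Psmb10* (3.08) and *Psme2* (2.13), and in m865 for *Psme1* (1.59). Each constitutive gene was lower in the HRS leg of 4 of 5 mice and higher in that of m866, where the folds were 1.09 for *Psmb5*, 1.13 for *Psmb6*, 1.18 for *Psmb7* and 1.10 for *Psme3*. Mouse m866 thus showed the smallest rise of most inducible genes and no fall of the constitutive ones.

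Since a ratio of 2 genes in a library does not change with the scaling of that library, each inducible subunit was divided by its counterpart. The log2 ratio of *Psmb8* to *Psmb5* averaged 0.39 ± 0.77 (SD, n = 5) in HRS legs and -2.58 ± 0.59 (SD, n = 5) in contralateral legs, a 7.86-fold change of the ratio. The ratio of *Psmb9* to *Psmb6* changed 9.11-fold and that of *Psmb10* to *Psmb7* changed 7.40-fold. The activator ratios moved less, 2.80-fold for *Psme1* to *Psme3* and 3.46-fold for *Psme2* to *Psme3*. In none of the 5 ratios did HRS legs and contralateral legs overlap. Each gave p = 0.00794 by a two-sided exact permutation of the libraries, the smallest that 5 against 5 allow. With the legs paired by mouse, exact sign flips gave p = 0.062, the smallest that 5 mice allow. Altogether 15 such ratio comparisons were computed, 5 ratios in 3 pairs of groups.

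Mouse by mouse, the ratio of *Psmb8* to *Psmb5* rose 9.72-fold in m862, 8.64-fold in m863, 13.7-fold in m864, 7.45-fold in m865 and 3.51-fold in m866. The ratio of *Psmb10* to *Psmb7* spanned 2.58-fold in m866 to 15.5-fold in m864, and that of *Psmb9* to *Psmb6* spanned 4.13-fold to 16.1-fold in the same 2 animals. The rise of the ratio was thus present in each mouse, with a spread of severalfold between animals.

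**Figure D2:**
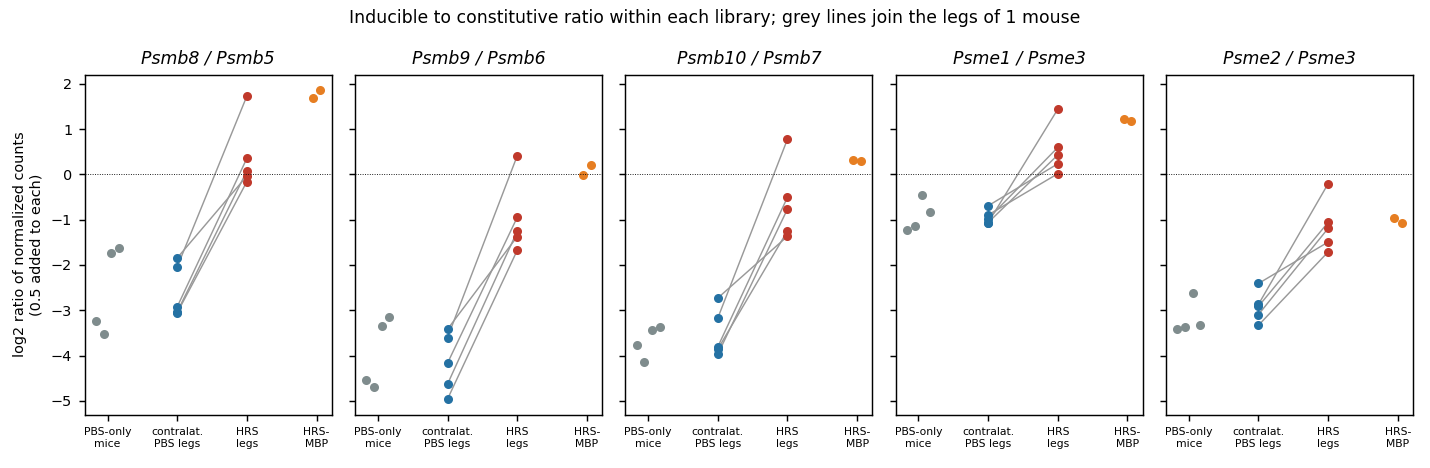
Log2 ratio of the inducible to the constitutive normalized count in each library (0.5 added to each gene), for 5 pairs of genes. Grey lines join the legs of 1 mouse and rise in 5 of 5 mice for each pair, and HRS legs lie above both PBS groups, for *Psmb8* to *Psmb5* from -0.16 to 1.73 against -3.06 to -1.85 in contralateral legs.

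Levels of different genes can be set side by side only per length, so normalized counts were divided by the length of the principal transcript (GENCODE M21) and expressed as the inducible share of each pair. *Psmb8* was 6.02% to 13.1% of the *Psmb8* and *Psmb5* sum per kilobase in contralateral legs and 33.1% to 64.8% in HRS legs. *Psmb9* was 1.65% to 5.00% of its pair with *Psmb6* in contralateral legs and 15.4% to 44.0% in HRS legs. *Psmb10* was 5.12% to 11.5% of its pair with *Psmb7* in contralateral legs and 25.5% to 60.3% in HRS legs. The contralateral and HRS ranges did not overlap for any of the 3 catalytic pairs, and by this length the constitutive transcript of these pairs was the more abundant of the 2 in the HRS legs, except for *Psmb8* and *Psmb10* in that of m864. The activator pairs differed. *Psme1* was 53.1% to 59.6% of its pair with *Psme3* in contralateral legs and 70.8% to 86.7% in HRS legs. *Psme2* was 20.3% to 33.4% of its pair with *Psme3* in contralateral legs and 45.2% to 70.5% in HRS legs. The shares depend on the length used. With the joined length of all annotated exons the mean *Psmb8* share in HRS legs was 26.8% in place of 42.2%, and the mean *Psmb10* share 55.9% in place of 37.1%. By that length *Psmb10* was at 58.6%, 54.1% and 77.5% in the HRS legs of m862, m863 and m864, and *Psmb8* at 47.0% in m864. The order of the pairs is thus not fixed by these data, nor is the more abundant transcript of the *Psmb8* and *Psmb10* pairs.

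The next question was whether HRS legs also differed from mice that had received PBS alone. In PBS-only mice *Psmb8* was at 7.45 and 7.48 in the legs of m867 and at 25.6 and 21.4 in those of m868. *Psmb9* was at 3.59 and 3.80 in m867 and at 10.6 and 8.996 in m868. *Psmb10* was at 10.6 and 9.18 in m867 and at 16.7 and 14.1 in m868. The legs of an animal lay close together, and m868 was above m867 for all 3 genes. With 2 animals in the group, the 4 legs are not 4 independent replicates, so p-values of comparisons with this group are too small.

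Against PBS-only mice, 5 of 5 inducible genes were called higher in HRS legs and 0 of 4 constitutive genes were called, beside 24.8% of all genes called in either direction and 18.9% called higher. The limma log2 fold changes were 2.97 for *Psmb8* (adjusted p = 3.93e-05), 3.00 for *Psmb9* (adjusted p = 2.88e-05), 2.50 for *Psmb10* (adjusted p = 8.66e-06), 1.40 for *Psme1* (adjusted p = 0.000118) and 1.99 for *Psme2* (adjusted p = 1.97e-05). *Psme1* was at 24.4, 27.3, 40.6 and 31.5 in the PBS-only legs and *Psme2* at 5.01, 5.41, 8.74 and 5.12, listed as m867 right and left, then m868 right and left. For each inducible gene the lowest HRS leg exceeded the highest PBS-only leg. *Psmb5* (0.04), *Psmb6* (0.04) and *Psme3* (-0.06) had log2 fold changes near 0 with adjusted p of 0.740, 0.773 and 0.555, whereas *Psmb7* was at -0.56 (adjusted p = 0.00772), short of the fold threshold. This depended on the scaling. With equal totals and with limma-voom, 3 of 4 constitutive genes, all but *Psmb7*, were higher at an adjusted p below 0.05. All-gene medians were then 0.51 and 0.53 in place of 0.15. In PBS-only legs *Psmb5* was at 67.1 to 91.8, *Psmb6* at 83.5 to 113, *Psmb7* at 151 to 188 and *Psme3* at 55.9 to 61.0, and the HRS legs overlapped each of these ranges. The ratios of inducible to constitutive genes were 7.61-fold (*Psmb8* to *Psmb5*), 7.78-fold (*Psmb9* to *Psmb6*), 8.34-fold (*Psmb10* to *Psmb7*), 2.75-fold (*Psme1* to *Psme3*) and 4.14-fold (*Psme2* to *Psme3*) above those of PBS-only legs, with p = 0.0159 each by exact permutation, the smallest that 5 against 4 libraries allow. This comparison shares its HRS legs with the one above.

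The size of the rise over PBS-only mice turned on which of the 2 animals served as reference. Without both legs of m868 the log2 fold change of *Psmb8* was 3.77, and without both legs of m867 it was 2.18. The gene was called in either case.

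Contralateral PBS legs were then set against PBS-only mice, to see whether the PBS side of HRS mice differed from mice given PBS alone. None of the 9 genes was called, as was the case for nearly all genes (0.00609% called, limma). The log2 differences were 0.17 for *Psmb8* (95% confidence interval -0.68 to 1.03), 0.06 for *Psmb9* (-0.77 to 0.90) and 0.19 for *Psmb10* (-0.41 to 0.80), so that a difference of less than about 1 log2 unit in either direction was not detectable for *Psmb8*. Their direction was not stable, since *Psmb8* was at 0.97 without m868 and -0.62 without m867, *Psmb9* was at 0.71 and -0.58, and leaving out the right leg of m867 alone turned the sign of both. *Psmb6* had the smallest unadjusted p of the 9 genes, 0.0233, at a log2 difference of 0.29 (adjusted p = 0.840). Over all genes, 902 had an unadjusted p below 0.05. Exact permutation of the 5 ratios between these groups gave p from 0.286 to 1.

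Within both PBS groups *Psmb8*, *Psmb9* and *Psmb10* split by animal, whereas *Psme1* and *Psme2* did not do so in both groups. Contralateral legs of m864 and m866 held 21.2 and 21.7 of *Psmb8*, above the 11.2 to 12.7 of m862, m863 and m865. *Psmb9* split the same way, at 9.21 and 9.46 against 3.82 to 6.79, and *Psmb10* was at 16.8 and 19.95 against 10.4 to 13.5. Leukocyte marker sums were 40.3 and 45.4 in m864 and m866 and 19.3, 40.3 and 31.3 in m862, m863 and m865. In PBS-only legs the sums were 31.7 and 15.9 in m867 and 37.5 and 35.4 in m868.

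HRS-MBP was the last group. *Psmb8* was at 198 in m860 and 194 in m861, *Psmb9* at 91.8 and 94.9, *Psmb10* at 122 and 115, *Psme1* at 132 and 137, and *Psme2* at 28.8 and 28.2. Against PBS-only mice 5 of 5 inducible genes were called higher, beside 20.7% of all genes, and 0 of 4 constitutive genes were called, beside 30.9% of all genes in either direction. The limma log2 fold changes ran from 2.13 for *Psme1* (adjusted p = 2.64e-05) to 3.84 for *Psmb9* (adjusted p = 2.72e-05), with *Psmb8* at 3.83 (adjusted p = 3.51e-05). The reference animal mattered here too, as *Psmb8* was at 4.63 without m868 and 3.04 without m867, and *Psmb9* at 4.48 and 3.19. With 2 libraries against 4 legs of 2 animals, the test rests on a spread shared with the other groups.

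The constitutive genes in HRS-MBP were measured at 61.5 and 53.0 for *Psmb5*, 92.9 and 82.0 for *Psmb6*, 97.8 and 93.1 for *Psmb7*, and 56.3 and 59.9 for *Psme3*. *Psmb5* and *Psmb7* were below each PBS-only leg, and *Psmb5* was also below each HRS leg. Their limma log2 fold changes against PBS-only mice were -0.47 (adjusted p = 0.0100) and -0.78 (adjusted p = 0.00561). After scaling to equal totals, *Psmb5* was at -0.01, *Psmb7* at -0.31 and *Psme3* at 0.47, the last in place of 0.01. The all-gene median was then 0.53 in place of 0.11.

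HRS-MBP and HRS legs were then compared directly. 0 of the 9 genes were called by limma, beside 0.463% of all genes. Log2 differences of HRS-MBP over HRS legs were 0.86 for *Psmb8* (95% confidence interval -0.21 to 1.93), 0.84 for *Psmb9* (-0.20 to 1.88), 0.71 for *Psmb10* (-0.04 to 1.46), 0.73 for *Psme1* (0.15 to 1.30), 0.18 for *Psme2* (-0.47 to 0.84) and -0.52 for *Psmb5* (-0.80 to -0.23). *Psme1* and *Psmb5* had unadjusted p of 0.0163 and 0.00156, and adjusted p of 0.248 and 0.108. The intervals of *Psmb8*, *Psmb9*, *Psmb10* and *Psme1* leave room for differences of more than 2-fold, so the groups cannot be called alike for these genes. The HRS leg of m864 weighed on this comparison. Without it, 590 genes in place of 76 were called, and the adjusted p was 0.0103 for *Psme1* and 0.0301 for *Psmb5*, both still short of the fold threshold. The adjusted p of *Psmb5* was also below 0.05 with quantile normalization. Without the HRS leg of m866 180 genes were called, without m860 135, without m861 25, with a filter at a mean of 5 only 13, and in a fit of these groups alone 4. The row of *Psme2* is again uncertain, since *Psme2* made up 18.7% to 18.8% of its sum with *Psme2b* in HRS-MBP against 23.1% to 23.9% in HRS legs, and the sum was 151 and 153 in HRS-MBP beside a mean of 114 in HRS legs. The concentrations and the protein differ between the groups, and the HRS leg of m864 (251 for *Psmb8*) was above both HRS-MBP libraries.

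None of the 7 alpha subunits of the 20S core, the 4 other beta subunits, the 6 ATPases and the 13 tested non-ATPase subunits of the 19S regulator was called between HRS and contralateral legs. Of all genes, 23.2% were called in either direction. Alpha subunits ranged from a log2 fold change of -0.37 (*Psma3*) to 0.27 (*Psma5*), with a median of -0.02, and 1 of 7 was higher and 2 lower at an adjusted p below 0.05, beside 35.1% and 25.9% of all genes. The 4 non-catalytic beta subunits lay between -0.06 (*Psmb4*) and 0.06 (*Psmb1*). The ATPases that unfold substrates lay between -0.41 (*Psmc2*) and -0.15 (*Psmc1*), and the non-ATPase subunits, which include ubiquitin receptors and the lid, between -0.60 (*Psmd6*) and -0.05 (*Psmd13*). With an adjusted p below 0.05 but under the fold threshold, 3 of 6 ATPases and 8 of 13 non-ATPase subunits were lower, beside 25.9% of all genes. With equal totals the alpha list had a median of 0.39 and the non-catalytic beta list a median of 0.36, both below the 0.46 of all genes under that scaling. At an adjusted p below 0.05, 5 of 7 alpha and 4 of 4 beta subunits were then higher and 0 lower. The direction of both 19S lists turned with scaling to equal totals, where their medians were 0.16 and 0.08, and with limma-voom. With equal totals, 3 of 6 ATPases and 4 of 13 non-ATPase subunits were higher at an adjusted p below 0.05, and 0 and 1 were lower. *Psmb4*, *Psma3*, *Psmc1*, *Psmc2* and *Psmd13* also changed sign under at least 1 scaling, whereas *Psmd6*, *Psma5* and *Psmb1* kept theirs.

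Outside the 20S and 19S particles, *Psme4*, which encodes the PA200 activator, was at a log2 fold change of -0.87 (adjusted p = 0.00544), and *Psmf1*, encoding the PI31 proteasome inhibitor, at -0.15 (adjusted p = 0.164). With equal totals *Psme4* was at -0.45 and *Psmf1* at 0.26. Among 9 assembly factors tested, *Psmg4*, a chaperone of alpha ring assembly, was called higher (1.14, adjusted p = 0.000842), which did not hold under quantile normalization (0.71), and *Ecpas*, a proteasome adaptor, was at -0.88 (adjusted p = 0.00407), or -0.46 with equal totals. *Pomp*, the maturation factor of the core, was at 0.29. The testis subunit *Psma8* and the thymus subunit *Psmb11* fell under the filter.

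**Figure D3:**
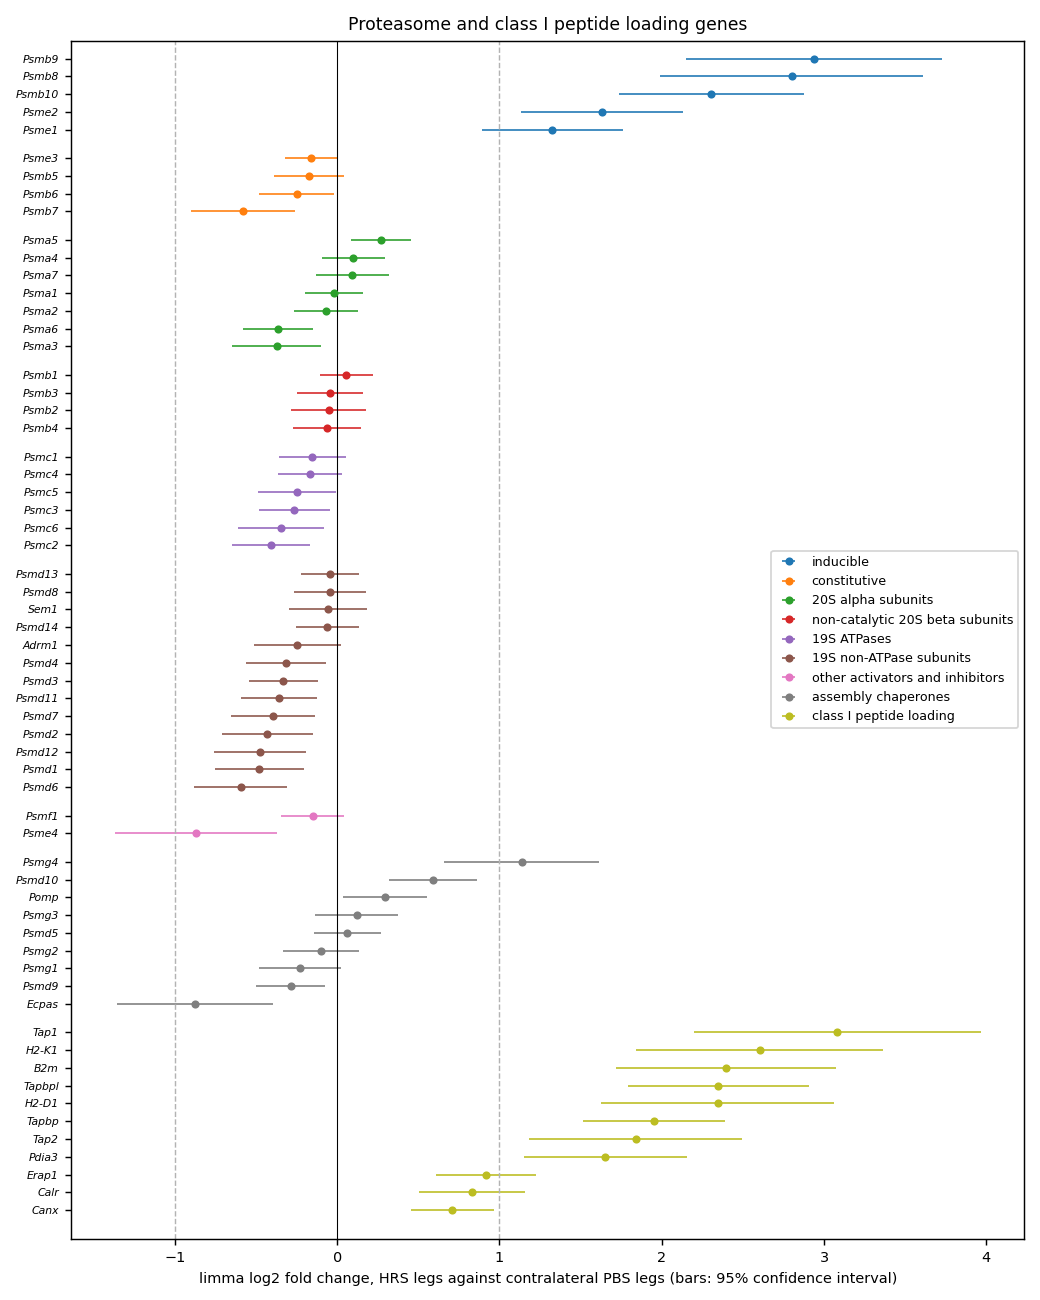
Limma log2 fold change of HRS legs against contralateral PBS legs for the inducible and constitutive subunits, the other proteasome lists and the class I peptide loading genes, with 95% confidence intervals and dashed lines at the fold threshold of 1. The 5 inducible genes (1.32 to 2.94) and 8 of 11 peptide loading genes lie beyond the threshold on the right, and *Psmg4* is the only other gene of the core, 19S, activator and assembly lists to do so. The medians of the 19S lists turn above 0 with equal totals and with limma-voom, whereas *Psmd6* stays below 0 under each scaling tried.

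Peptides from the proteasome are carried into the endoplasmic reticulum by the TAP transporter and loaded onto MHC class I. Of 11 genes of this route, 8 were called higher in HRS legs, beside 16.9% of all genes, and all 11 had an adjusted p below 0.05 in that direction, beside 35.1% of all genes. Their log2 fold changes lay between 0.71 for *Canx*, a general chaperone of the endoplasmic reticulum, and 3.08 for *Tap1*, a transporter subunit (adjusted p = 4.05e-05). *Tap1* was at 80.5 to 287 in HRS legs, 10.9 to 21.6 in contralateral legs, 5.86 to 28.9 in PBS-only mice and 239 to 240 in HRS-MBP. The list's median of 1.95 stands beside a median of 0.08 over all genes. All 11 were called with equal totals and with limma-voom, and 9 with quantile normalization, where 4581, 4563 and 3725 of all genes were called in either direction in place of 3810.

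Of 11 genes that encode known regulators of proteasome or class I genes, 5 were called higher and 0 lower, beside 16.9% and 6.27% of all genes. With equal totals and with limma-voom 8 of the 11 were called higher, under scalings that moved the all-gene median from 0.08 to 0.46 and 0.48. *Irf1*, an interferon-induced activator of *Psmb9* and *Tap1*, was at a log2 fold change of 2.91, with 77.3 to 307 in HRS legs and 13.9 to 24.1 in contralateral legs. *Nlrc5*, the transactivator of MHC class I genes, was at 2.96, and *Irf8*, an interferon regulatory factor of myeloid cells and B cells, at 3.32, the largest of the list. *Nfe2l1*, which restores constitutive proteasome genes when proteasome activity is limiting, was at -0.72 (adjusted p = 0.00394, limma), and *Nfe2l2*, a regulator of the antioxidant response, at 0.77 (adjusted p = 0.000304). Neither was called, and both kept their sign under each scaling tried. *Nfe2l2* passed the calling rule with equal totals (1.19, adjusted p = 0.000464) and with limma-voom (1.20, adjusted p = 0.000735). *Nfe2l1* held 292 to 662 in HRS legs and 519 to 762 in contralateral legs.

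The genes closest to *Psmb8* over the 16 libraries were found by the root mean square difference of log2 values, each gene centred on its own mean. *Psmb9* was the nearest of all tested genes (0.17 log2 units), followed by the class Ib gene *H2-T23* (0.18) and *Tap1* (0.21). *Psmb10* ranked 24th, *Psme2* 776th and *Psme1* 1063rd. For *Psmb5* the nearest were *Lsm4*, an RNA-binding protein of splicing complexes (0.08), *Anapc11*, a subunit of the anaphase-promoting complex (0.08), and *Eef1g*, an elongation factor subunit (0.09), with *Psmb6* ranking 11th, *Psme3* 1183rd and *Psmb7* 2960th. The 16 libraries include legs of the same animals, and the part of the differences between HRS and PBS samples in the measure was not tested. Between HRS and contralateral legs *H2-T23* had a log2 fold change of 2.52.

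Markers of other cell types moved with the inducible genes. Between HRS and contralateral legs the 3 leukocyte markers were called higher, with log2 fold changes from 3.32 for *Laptm5* to 3.93 for *Ptprc*, and macrophage markers from 2.53 for *Csf1r* to 4.13 for *Adgre1*. Markers of neutrophils (3 of 3, from 3.29 for *S100a8* to 4.19 for *Csf3r*) and NK cells (2 of 2, 2.12 and 2.55) were called higher as well, as was the plasma cell gene *Jchain* (3.97). All 3 fibroblast markers had an adjusted p below 0.05 in the higher direction, and 1 of them, the collagen gene *Col1a1*, was called (3.40), against 3 of 3 with equal totals and with limma-voom and 2 of 3 with quantile normalization. Of 2 endothelial markers 0 were called. The sum of 4 T cell markers was 9.57 to 77.7 in HRS legs and 1.05 to 2.54 in contralateral legs, where *Cd8a* was at 0 in at least 1 library. Muscle fibre markers had a median log2 fold change of -1.06, with 4 of 8 called lower, beside 6.27% of all genes. This depended on the scaling, since the median was -0.64 with equal totals, -0.65 with limma-voom and -0.04 with quantile normalization, each with 1 of 8 called lower. The part of these cells in the rise of the inducible genes, or of the lower fibre markers in the level of *Psmb7*, was not tested.

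The HRS legs differed among themselves in the same measures. The leg of m864 had the highest leukocyte sum (849), the lowest fibre sum (38699) and the highest *Psmb8*, *Psmb9*, *Psmb10*, *Psme1* and *Psme2*. The leg of m866 had the lowest leukocyte sum (192) and a fibre sum of 155507, above the 111261 of its own PBS leg. In that animal *Psmb8* was at 84.1 in the HRS leg and 21.7 in the PBS leg, and the leukocyte sum at 192 and 45.4. The HRS leg of m865 held 70.1 of *Psmb8* with a leukocyte sum of 428.

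**Figure D4:**
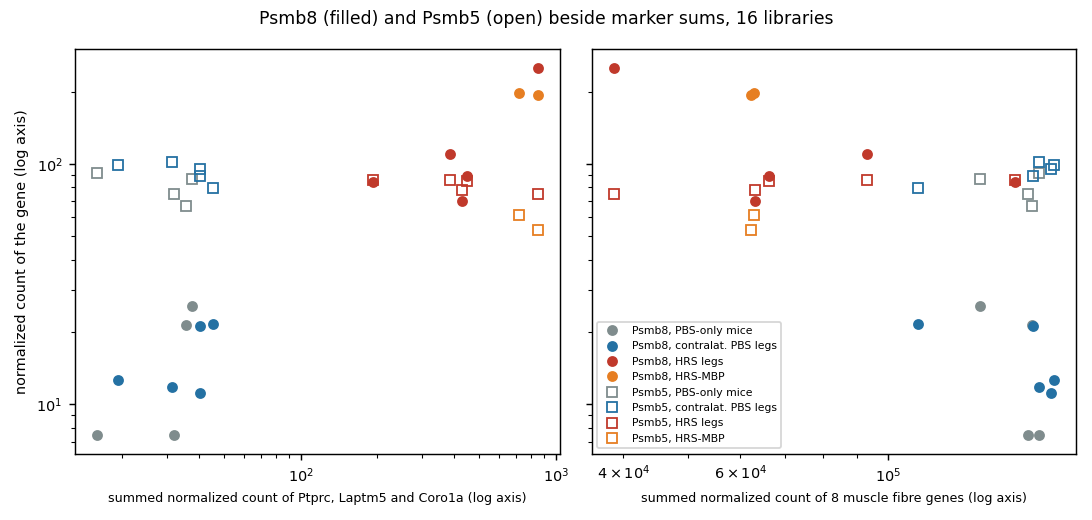
Normalized counts of *Psmb8* (filled circles) and *Psmb5* (open squares) in the 16 libraries (log axis) beside the summed leukocyte markers (left, log axis) and the summed muscle fibre markers (right, log axis), coloured by group. *Psmb8* and the leukocyte sum are both higher in HRS legs and HRS-MBP than in PBS legs, the HRS leg of m866 combines a fibre sum of 155507 with a *Psmb8* of 84.1, and *Psmb5* stays between 53.0 and 102 across the panel.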

How the data were processed

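Poly(A)-selected, strand-preserving libraries of hamstring muscle were sequenced by the authors on several Illumina instruments, and which library ran on which is not stated. The submitters' processing notes name STAR 2.7.8a, limma and the mouse build mm39 (GRCm39), whereas 98.9% of the 25652 genes matched to GENCODE M21 by symbol and chromosome had the start and end of GRCm38 in the deposited table. Coordinates are therefore given in GRCm38. Quantification, annotation and scaling are not given in the sources used here.

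Values deposited by the authors are normalized counts on a linear scale, handled as signal without negative values. In each library 75.1% to 77.5% of low values (up to 20 steps) fell within 0.02 steps of a whole multiple of the smallest step, too few to recover reads, which left out count models.

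Limma 3.58.1 in R 4.3.3 (lmFit, eBayes with a mean trend) was run on log2(normalized count + 0.5) for the 16414 genes with a mean of at least 0.5, in 1 fit of 4 groups without a mouse block, with Benjamini-Hochberg adjustment over the tested genes. Fold changes on this scale understate those of low genes. Ratios were tested by exact permutation (scipy 1.17.1), and transcripts aligned with Biopython 1.88. The fit was first tested on simulated data. Named genes were the 9 members, the largest rise and fall of each other list, the 3 genes nearest to *Psmb8* and to *Psmb5*, and *Irf1*, *Nlrc5*, *Nfe2l1* and *Nfe2l2*. A further gene set by the rule is not reported here and was left out of the list of regulators. *Pomp*, *Csf1r*, *Adgre1* and *Psme2b* were named after their values were seen. Members and lists were chosen with earlier results of these data known.

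Mouse labels show that HRS and contralateral legs of the same number come from the same animal, so the samples are paired. Across genes, both legs of a mouse deviated from their group means with a correlation of 0.12, 0.16, 0.10, -0.03 and -0.37 in m862 to m866. Alternatives covered the pseudocount, filter, scaling, variance model, mouse block, groups in the fit, each library left out and, chosen after the data were seen, the loss of a whole PBS-only mouse and another gene length.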

Additional observations from a re-analysis of the deposited data

Results flagged for a closer look

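In 42 groups of 4 or 5 values (9 genes and 5 ratios in 3 groups), 4 held a value far from the others by Dixon's criterion, which chance alone meets in about 1 in 20 groups. *Psme2* in PBS-only mouse m868, right leg, was at 8.74 normalized counts, with the nearest of the other 3 legs at 5.41. The same leg had a log2 ratio of *Psme2* to *Psme3* of -2.61, with the nearest at -3.34, and it was the shallowest library, at an implied 8600000 reads. *Psme3* in the contralateral PBS leg of m866 was at 56.3, with the nearest of the other 4 legs at 62.4. The log2 ratio of *Psmb8* to *Psmb5* in the HRS leg of m864 was 1.73, with the nearest of the other 4 legs at 0.36. No explanation of these values was tested.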

How the results depend on the processing

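The 5 inducible genes were called higher under 22 alternatives against contralateral legs, 23 against PBS-only mice and 20 in HRS-MBP over PBS-only legs, and no number of called members changed. Against contralateral legs *Psmb8* ranged from 2.50 (without the HRS leg of m864) to 3.25, *Psmb9* from 2.64 to 3.37, *Psmb10* from 2.06 to 2.74, *Psme1* from 1.11 to 1.75 and *Psme2* from 1.38 to 2.03 on the log2 scale. With legs paired by mouse (replicate block), the ratio differences of 2.97 (*Psmb8* to *Psmb5*), 3.19 (*Psmb9* to *Psmb6*), 2.89 (*Psmb10* to *Psmb7*), 1.48 (*Psme1* to *Psme3*) and 1.79 (*Psme2* to *Psme3*) had p = 0.062 by exact sign flips, the smallest that 5 mice can give, and the block changed no call of a member in limma. Signs of the constitutive genes turned with scaling, and the cause was not tested. Against contralateral legs, equal totals gave 0.241 for *Psmb5*, 0.167 for *Psmb6* and 0.255 for *Psme3*, and limma-voom 0.244, 0.171 and 0.258. Against PBS-only mice, the trimmed mean of M values gave -0.0572 for *Psmb5* and -0.0605 for *Psmb6*, the loss of both m868 legs -0.0174 for *Psmb5*, and equal totals and limma-voom 0.334 and 0.336 for *Psme3*, while leaving out single libraries gave -0.0370 to 0.113 for *Psmb5* and -0.0433 to 0.100 for *Psmb6*. The highest values over the 23 alternatives were 0.440 for *Psmb5* and 0.437 for *Psmb6*. Equal totals and limma-voom each put 3 of 4 constitutive genes higher at an adjusted p below 0.05. For HRS-MBP against PBS-only mice, *Psmb6* was at 0.276 with equal totals and 0.280 with limma-voom, and *Psme3* at 0.469 and 0.474. *Psme3* was then the 1 of 4 constitutive genes higher at an adjusted p below 0.05. It was at -0.0460 with the trimmed mean, -0.0413 with quantile normalization, -0.0350 without m868 and -0.0375 to 0.0515 without single libraries. For contralateral against PBS-only legs, where no member was called, the loss of m868 gave 0.966 for *Psmb8* and 0.707 for *Psmb9*, and the loss of m867 gave -0.621 for *Psmb8*, -0.583 for *Psmb9*, -0.115 for *Psmb10*, -0.155 for *Psme1* and -0.0147 for *Psmb7*. *Psmb9* was at -0.0213 with quantile normalization, and *Psmb7* at -0.00174 with equal totals, -0.0296 with the trimmed mean, -0.0293 with quantile normalization and -0.00294 with limma-voom. Single libraries left out gave -0.0930 to 0.479 for *Psmb8*, -0.165 to 0.314 for *Psmb9*, -0.0273 to 0.215 for *Psme1* and -0.0375 to 0.0955 for *Psmb7*. Depth limits the precision of single values, the fewest reads behind a value of a member being about 72 (*Psme2* in a leg of m868).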
